A study of Homo sapiens with 2 samples.

Results

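DAB2 is a cargo adaptor of clathrin-mediated endocytosis, and the gene set described here holds DAB2, its related adaptors DAB1 and NUMB, the motor MYO6 and the LDL receptor family members VLDLR, LRP1, LRP2 and LRP8. These 8 genes were taken by name out of the 57736 Ensembl genes of the deposited RNA-Seq table. RNA was sequenced from A1847 cells, a human epithelial ovarian cancer line with high CARM1, in 2 libraries. The parental control library carries CARM1 wild type. The other library is CARM1 knockout (CARM1 KO), made with a CRISPR guide RNA against CARM1 in a lentiviral vector and described in the study as a clone. No drug treatment is given for either library, and there is 1 library per group. Both were grown in RPMI medium with fetal bovine serum. A clone is therefore set against a population, so features of the clone and loss of CARM1 cannot be told apart. No difference given here has a replicate check within these 2 libraries, and each compares the libraries rather than the conditions. For DAB2, the study also reports higher mRNA in CARM1 KO than parental A1847 cells by qRT-PCR, from independent experiments.

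DAB2 and its relatives bind cargo receptors through a phosphotyrosine-binding (PTB) domain, which recognises the NPXY motif (asparagine, proline, any residue, tyrosine) in the cytoplasmic tail of LDL receptor family proteins. DAB2 also binds clathrin, the AP-2 complex and MYO6, a myosin that walks toward the minus end of actin filaments and carries vesicles inward. DAB1 couples VLDLR and LRP8 to reelin signalling in neurons, and NUMB is known for asymmetric inheritance and for its inhibition of Notch. DAB2 is expressed in normal ovarian surface epithelium and is known as a tumor suppressor that is often lost in ovarian cancer.

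The motif that joins the receptors to the adaptors is shown first. The coding sequences of the canonical GENCODE transcripts on GRCh37 were read in frame for codons of NPXY, which stand in capitals with 3 codons on either side. VLDLR and LRP8 each held 1 such site. LRP1 and LRP2 each held 3, of which the 2 nearest the stop codon are printed. The site not printed lay 3696 codons before the stop in LRP1 and 1797 in LRP2, and is not taken as a tail motif.
VLDLR, 36 codons before the stop: aactttgacAATCCTGTGTACttgaaaacc
LRP8, 97 codons before the stop: aattttgacAACCCAGTCTACaggaaaaca
LRP1, 71 codons before the stop: gagattggaAACCCCACCTACaagatgtac
LRP1, 37 codons before the stop: aacttcaccAACCCCGTGTATgccacactc
LRP2, 129 codons before the stop: atatttgaaAACCCAATGTACtcagccaga
LRP2, 57 codons before the stop: aactttgaaAATCCAATCTATgcacagatg
The site of VLDLR, like the one of LRP8, lies in a tail that is bound by DAB1 and DAB2. All 4 receptors of the set thus carry the motif, whatever their level in these libraries.

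DAB2 and VLDLR were higher in CARM1 KO cells by more than 3-fold, MYO6, LRP1 and LRP8 were higher by less than that, NUMB was close to its parental level, and DAB1 and LRP2 had almost no reads. A fold change here is the ratio of read counts scaled by edgeR's TMM method, and a gene is called higher or lower past 3-fold, the fold threshold used in the study, where both libraries together held at least 10 reads. No p-value is given, because a test would need a spread that 1 library per group does not supply. The 95% intervals are exact binomial (Clopper-Pearson) intervals that cover counting error only. In bulk RNA, fewer cells of a type and less RNA per cell cannot be told apart.

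The depth was 30741953 reads for parental and 32300391 for CARM1 KO cells. CARM1, the targeted gene, had 975 reads in the parental library and 380 in the knockout, a 2.63-fold lower level (95% interval 2.33 to 2.97). Across the 18563 genes with at least 10 reads, 12.8% were called higher and 11.7% were called lower, and among the 14140 protein-coding genes 12.7% were higher and 9.21% were lower. Of the 8 genes of the set, 6 reached the read minimum, 2 of these were called higher and 0 were called lower. With so few genes the count is read only as a description beside those shares. All 6 had a fold change above 1, where 48.9% of all genes with at least 10 reads did. The median log2 fold change was 0.91 over these 6 genes and -0.03 over all 18563. The whole set was chosen with earlier results of these data known, so these values are not an independent comparison. DAB2, which heads the set, was picked out by the study partly from this same comparison, as more than 3-fold higher. The study also required less EZH2 and H3K27Me3 ChIP-seq signal at the gene in CARM1 KO cells. A further criterion was a negative correlation with CARM1 expression in TCGA ovarian tumors. The call of DAB2 was thus known beforehand, and DAB2 enters these counts and the median.

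Among the adaptors, DAB2 (ENSG00000153071, chr5:39371777-39462402, minus strand of GRCh37) had 106 reads in the parental library and 438 in the knockout. Its fold change was 4.04 (95% interval 3.26 to 5.04), so even the lower end was past 3-fold. Of all genes with at least 10 reads, 8.88% had a larger log2 fold change than DAB2. NUMB (ENSG00000133961, chr14:73741815-73925323, minus strand) had 1010 reads in the parental library and 1140 in the knockout. The NUMB level was 1.10-fold higher (95% interval 1.01 to 1.20), and its interval lay far below that of DAB2. DAB1 (ENSG00000173406, chr1:57460451-59012406, minus strand) had 0 reads in both libraries, which allows up to 3 reads in each. The reelin adaptor was therefore not detected at this depth, and no fold can be given for it.

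MYO6 (ENSG00000196586, chr6:76458918-76629254, plus strand) had 632 reads in the parental library and 1225 in the knockout. The motor that works with DAB2 was 1.89-fold higher (95% interval 1.72 to 2.09), under the fold threshold.

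Among the receptors, VLDLR (ENSG00000147852, chr9:2621182-2660056, plus strand), a receptor for triglyceride-rich lipoproteins and reelin, had 46 reads in the parental library and 228 in the knockout. Its rise was 4.84-fold (95% interval 3.51 to 6.80), the largest point estimate in the set, and 6.72% of all genes with at least 10 reads had a larger log2 fold change. The intervals of VLDLR and DAB2 overlap, so their order is not resolved by the counts. LRP1 (ENSG00000123384, chr12:57522266-57607144, plus strand), a scavenger receptor for many proteases and their inhibitors, had 256 reads in the parental library and 492 in the knockout. Its level was 1.88-fold higher (95% interval 1.61 to 2.19), which overlaps the interval of MYO6. LRP8 (ENSG00000157193, chr1:53708036-53794141, minus strand), the other reelin receptor, had 585 reads in the parental library and 890 in the knockout. Its level was 1.49-fold higher (95% interval 1.34 to 1.65). LRP2 (ENSG00000081479, chr2:169983619-170219044, minus strand), the megalin of absorptive epithelia, had 0 reads in the parental library and 3 in the knockout. Both counts are at or under the limit of 3 reads that a count of 0 allows, so no fold is given. A long non-coding RNA, RP5-1024G6.8, overlaps LRP8 on the same strand and had 212 reads in the parental library and 383 in the knockout. Reads of the pair may have been divided between them, and with both counts added the fold change was 1.56 (95% interval 1.43 to 1.71). STAT6 overlaps LRP1 on the opposite strand, with 1105 and 1436 reads, and OMA1 overlaps DAB1 on the same strand, with 680 and 541 reads. Whether strand was used in the counting is not given in the sources used here.

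Levels of different genes were compared as RPKM, the read count divided by the merged exon length in kilobases and by the TMM-scaled library size. In parental cells the order of RPKM levels was NUMB at 3.40, MYO6 at 1.89, LRP8 at 0.955, DAB2 at 0.441, LRP1 at 0.394 and VLDLR at 0.0895. The counting intervals of the DAB2 level (0.361 to 0.533) and the LRP1 level (0.347 to 0.445) overlap, so these neighbours in the order do not differ beyond counting error. In CARM1 KO cells the order was NUMB at 3.75, MYO6 at 3.59, DAB2 at 1.78, LRP8 at 1.42, LRP1 at 0.740 and VLDLR at 0.433. By these levels DAB2 passed LRP8, from rank 4 to rank 3 in the set. The interval of the DAB2 level (1.62 to 1.95) lay above that of LRP8 (1.33 to 1.52). That LRP8 level rests on 890 reads and leaves out the non-coding RNA that overlaps LRP8 on the same strand. With both counts added, the LRP8 count in CARM1 KO cells was 1273. No RPKM level was computed from that sum, so the order of DAB2 and LRP8 in CARM1 KO cells is not resolved. The intervals of NUMB (3.53 to 3.97) and MYO6 (3.39 to 3.79) overlap in CARM1 KO cells. With the longest transcript as length, these levels were 6.91 for NUMB and 4.45 for MYO6, so their closeness depends on the length used. VLDLR stayed the lowest of the 6 despite its rise.

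**Figure D1:**
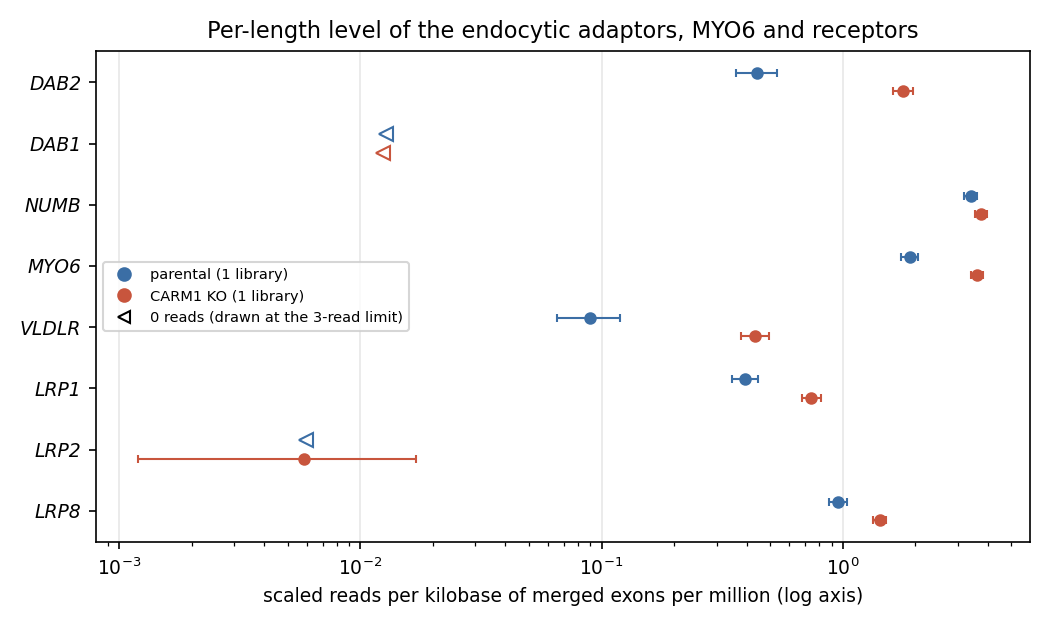
RPKM level on a log axis for each gene of the set, with parental in blue and CARM1 KO in red, 1 library each. Bars are exact 95% Poisson counting intervals and open triangles mark 0 reads, drawn at the 3-read limit. DAB2 moves from 0.441 to 1.78 and VLDLR from 0.0895 to 0.433, while NUMB stays between 3.40 and 3.75.

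DAB2 made up a larger part of the PTB-domain adaptors in CARM1 KO cells. The 5 adaptors compared were DAB2, DAB1, NUMB, NUMBL and GULP1 (an adaptor for LRP1 and for engulfment of dead cells). Of their summed RPKM level, DAB2 took 3.93% in parental and 20.2% in CARM1 KO cells. GULP1 took 59.7% in parental and 26.2% in CARM1 KO cells, with 2508 and 885 reads, a 2.90-fold lower level (95% interval 2.69 to 3.14) just under the threshold. NUMB took 30.3% in parental and 42.5% in CARM1 KO cells, though its own level was only 1.10-fold higher. The summed level itself was 11.2 in parental and 8.80 in CARM1 KO cells. Part of the larger shares of DAB2 and NUMB thus came from the smaller sum.

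The other LDL receptor family members mostly had fold changes below 1, while VLDLR, LRP1 and LRP8 had fold changes above 1. Of the 11 others, 0 were called higher and 2 were called lower, beside 12.7% and 9.21% of protein-coding genes. Their median log2 fold change was -0.64. LRP1B, a large relative of LRP1 that is often deleted in cancers, had 342 reads in the parental library and 11 in the knockout, a 31.8-fold fall (95% interval 17.6 to 64.4). LRP4, the agrin receptor of muscle and a Wnt antagonist in bone, had 937 and 141 reads, a 6.80-fold fall (95% interval 5.69 to 8.18). The Wnt coreceptors LRP5 and LRP6 were 2.58-fold and 1.91-fold lower. LRP12 was 1.51-fold higher (95% interval 1.41 to 1.63).

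The summed RPKM level of 14 receptors of the family was 41.3 in parental and 29.3 in CARM1 KO cells. LRP8 took 2.31% of that sum in parental and 4.85% in CARM1 KO cells, LRP1 took 0.955% and 2.53%, and VLDLR took 0.217% and 1.48%. The set's receptors were thus a small part of the family in both libraries, in which LRP6 took 37.6% and 27.8%.

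**Figure D2:**
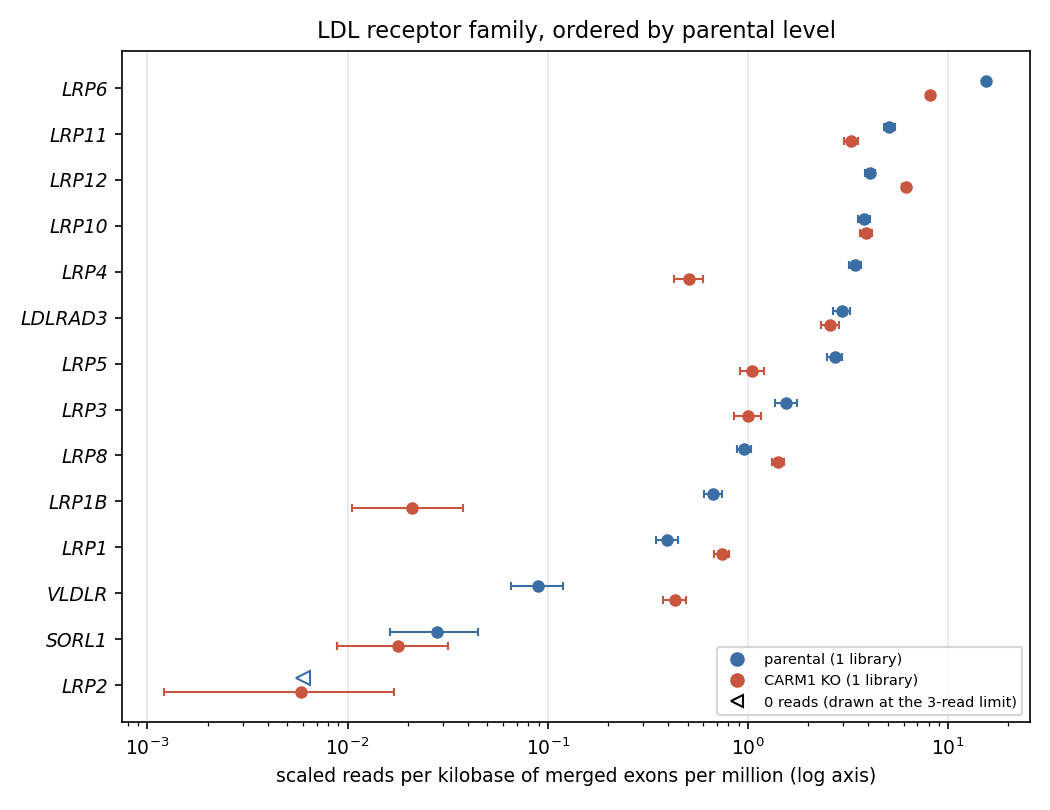
RPKM level on a log axis for 14 LDL receptor family genes, ordered by parental level, with parental in blue and CARM1 KO in red. Bars are exact 95% Poisson counting intervals and the open triangle marks 0 reads. LRP1B and LRP4 shift far to the left, while VLDLR, LRP1 and LRP8 shift to the right.

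Ligands of these receptors moved in both directions, with more of them called higher. Of 14 ligands, 13 reached the read minimum, 7 were called higher and 2 lower, beside 12.7% and 9.21% of protein-coding genes. THBS1, a matrix glycoprotein cleared through LRP1, had 4510 reads in the parental library and 35487 in the knockout, a 7.69-fold rise (95% interval 7.45 to 7.93). PLAT, the tissue plasminogen activator, rose from 214 to 1608 reads, 7.34-fold. LPL, the lipoprotein lipase that also docks on VLDLR, rose from 326 to 1292 reads, 3.87-fold. In the other direction, TFPI, an inhibitor of coagulation, had 3528 reads in the parental library and 202 in the knockout, a 17.9-fold fall. A2M, a protease trap cleared through LRP1, had 441 reads in the parental library and 0 in the knockout and was at least 150.5-fold lower against the limit of 3 reads. RELN, which encodes reelin, had 7 reads in the parental library and 42 in the knockout, a ratio of 5.86 (95% interval 2.61 to 15.5). APOE, the apolipoprotein ligand of most of the family, had 5321 and 1863 reads and was 2.92-fold lower, under the threshold, and just past it when scaled by library size only.

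Of 8 chaperones, coreceptors and turnover factors of the receptors, 2 were called higher and 0 lower, beside 12.7% and 9.21% of protein-coding genes. MYLIP, a ubiquitin ligase that sends VLDLR and LRP8 to degradation, had 78 reads in the parental library and 473 in the knockout, a 5.92-fold rise (95% interval 4.65 to 7.63). The chaperones stayed within the threshold, MESD with 2939 and 1959 reads and LRPAP1 with 2078 and 1639.

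Of the 8 clathrin and AP-2 genes, 0 were called in either direction, beside 12.7% of protein-coding genes called higher and 9.21% called lower. CLTC, the clathrin heavy chain, had 38448 reads in the parental library and 27371 in the knockout, a 1.44-fold lower level. AP2M1, the AP-2 subunit that reads tyrosine-based cargo signals, was 2.04-fold higher, with 7011 and 14640 reads. Of 13 genes of scission and uncoating, 4 were called higher and 0 lower, and the difference between these groups was not tested. BIN1, a membrane-bending amphiphysin, rose from 417 to 1771 reads, 4.15-fold, and its neuronal relative AMPH rose from 21 to 150 reads, 6.98-fold. DNAJC6, the neuronal auxilin that recruits HSPA8 to strip clathrin, rose from 330 to 1733 reads, 5.13-fold. SH3GL2, endophilin A1, had 15 and 79 reads, a 5.14-fold rise whose 95% interval began at 2.94. HSPA8, the uncoating ATPase, was 1.43-fold lower.

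Of 18 other cargo and clathrin adaptors, 1 was called higher and 1 lower, beside 12.7% and 9.21% of protein-coding genes. REPS2, an EH-domain protein, rose from 24 to 121 reads, 4.92-fold (95% interval 3.16 to 7.98). The lower gene was EPN3, with 18 reads in the parental library and 4 in the knockout. PICALM, which sets the size of clathrin cages, had 7822 and 17392 reads and was 2.17-fold higher, and EPS15 was 1.35-fold higher.

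Among the 6 cargo adaptors of MYO6, 1 was called higher and 0 lower, beside 12.7% and 9.21% of protein-coding genes. Their median log2 fold change was 0.67. OPTN, an autophagy receptor, rose from 1596 to 5056 reads, 3.09-fold, and the lower end of its interval (2.92) was under 3-fold. TAX1BP1, another autophagy receptor, had 2761 reads in the parental library and 4458 in the knockout.

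Downstream of DAB1, 1 of 10 genes was called higher and 1 lower, beside 12.7% and 9.21% of protein-coding genes. FYN, the Src family kinase that phosphorylates DAB1, rose from 262 to 1550 reads, 5.78-fold (95% interval 5.07 to 6.61), while DAB1 had no read in either library. PIK3R1, the regulatory subunit of PI3-kinase, fell from 2867 to 809 reads, 3.63-fold. Of the 11 signalling partners of DAB2, 1 was called higher and 0 lower, beside the same shares. Their median log2 fold change was -0.44. TGFBR2, the type II TGF-beta receptor that DAB2 links to SMAD proteins, rose from 294 to 1024 reads, 3.40-fold (95% interval 2.99 to 3.89). The study's list of EZH2 target genes past 3-fold gives the same read counts for an entry printed as TGFB2. The matching counts point to TGFBR2, whose call was then known beforehand and enters the count of partners. The type I receptor TGFBR1 was 2.33-fold lower. ITGB1, an integrin that DAB2 internalizes, had 63012 and 43374 reads and was 1.49-fold lower, and GRB2 was 1.37-fold lower.

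Over these 9 groups, 17 of the 98 countable genes were called higher and 6 were called lower, beside 12.7% and 9.21% of protein-coding genes. Their median log2 fold change was -0.05.

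**Figure D3:**
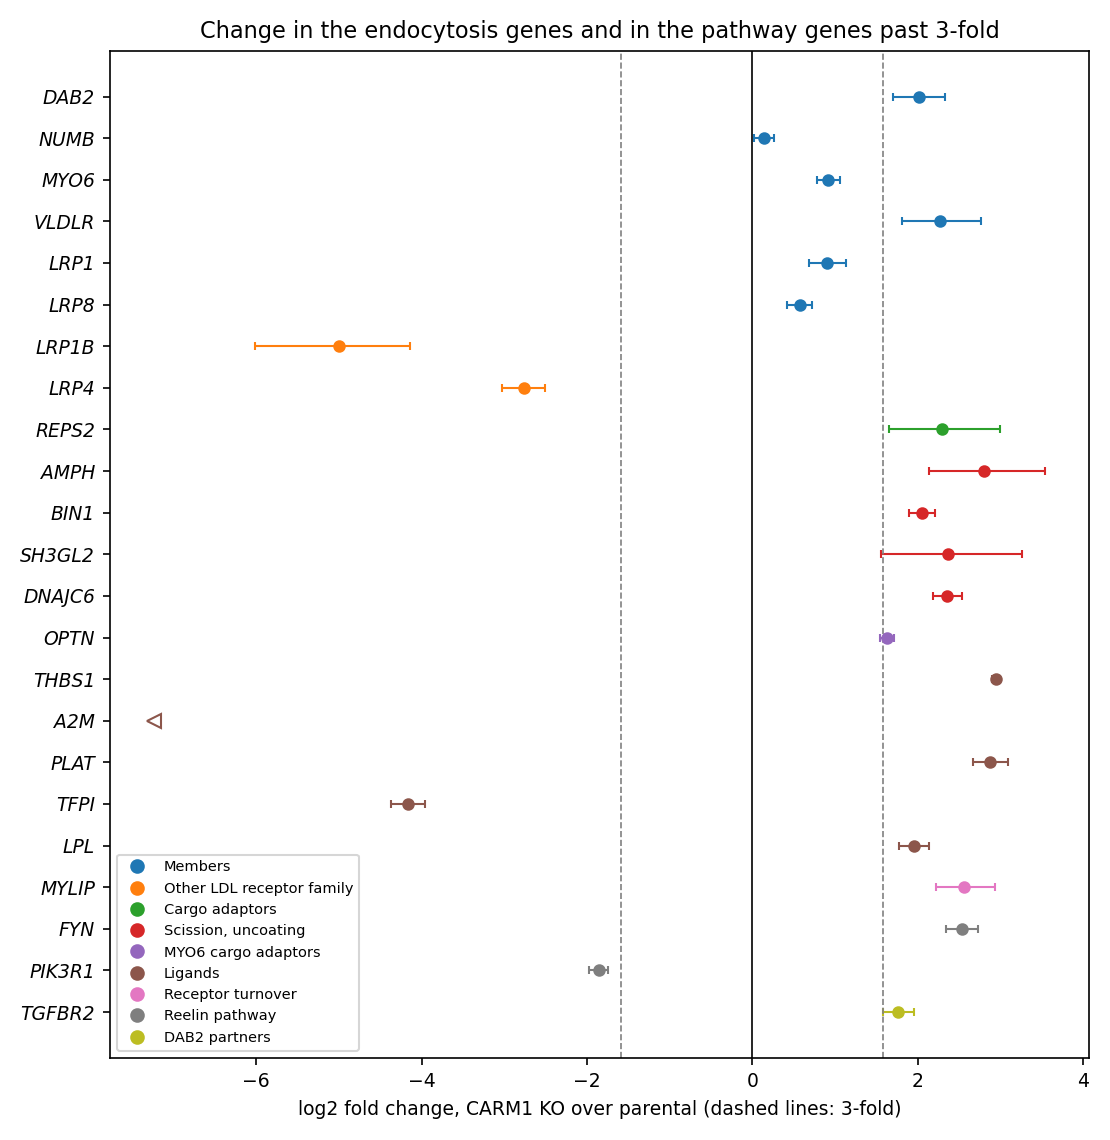
Log2 fold change of CARM1 KO over parental for the 6 countable genes of the set and for the listed pathway genes past 3-fold with at least 50 reads that are reported here, coloured by group. Bars are 95% counting intervals, dashed lines mark 3-fold, and the open triangle of A2M is a bound against 3 reads. DAB2 and VLDLR stand beyond the right dashed line, at 2.01 and 2.28.

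Markers of cell identity also differed between the libraries, in both directions, and their part in these results was not tested. Of 10 ovarian epithelial tumor markers, 8 were countable, and 6 were called higher and 1 lower, beside 12.7% and 9.21% of protein-coding genes. Their summed level was 1412 CPM (reads scaled to library size) in parental and 4751 in CARM1 KO cells. Most of both sums came from the keratins KRT7, KRT8 and KRT18, with 4417, 17600 and 21154 reads in parental and 26653, 70370 and 51223 in CARM1 KO cells. KRT19 was the marker called lower, with 45 and 0 reads. PAX8, the lineage factor of this tumor type, had 311 and 1149 reads. MUC16 had 0 reads in the parental library and 1 in the knockout, and WT1 had 8 and 1. Of 6 fibroblast markers, 4 were called lower and 1 higher, beside 9.21% and 12.7% of protein-coding genes. Their sum was 493 CPM in parental and 21.5 in CARM1 KO cells. Most of the parental sum was PDGFRA, with 14326 and 2 reads, and most of the knockout sum was COL1A1, the marker called higher, with 131 and 537 reads. DCN had 24 and 0. DAB2 is also expressed in macrophages. Of 6 macrophage and leukocyte markers the summed level was 13.7 and 52.5 CPM, almost all of it CD68, with 400 and 1644 reads. The leukocyte gene PTPRC had 6 reads in the parental library and 0 in the knockout, and CSF1R had 1 and 5. Of the endothelial markers, 5 of 6 were found in the table, with 13 and 18 reads in all.

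The promoters of DAB2 and VLDLR, the genes of the set past 3-fold, are shown as the 250 bases upstream of the RefSeq start, read 5′ to 3′ on the strand of the gene. The sequences come from a RefSeq table and were located on GRCh37 by exact match. Capitals mark the GC box letters GGGCGG or, on the other strand, CCGCCC.
DAB2, chr5:39425083-39425332, minus strand: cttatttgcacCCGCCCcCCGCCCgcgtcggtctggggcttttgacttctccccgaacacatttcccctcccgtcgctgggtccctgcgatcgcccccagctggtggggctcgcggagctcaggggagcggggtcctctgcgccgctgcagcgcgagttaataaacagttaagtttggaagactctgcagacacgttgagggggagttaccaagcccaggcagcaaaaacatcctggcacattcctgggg
VLDLR, chr9:2621537-2621786, plus strand: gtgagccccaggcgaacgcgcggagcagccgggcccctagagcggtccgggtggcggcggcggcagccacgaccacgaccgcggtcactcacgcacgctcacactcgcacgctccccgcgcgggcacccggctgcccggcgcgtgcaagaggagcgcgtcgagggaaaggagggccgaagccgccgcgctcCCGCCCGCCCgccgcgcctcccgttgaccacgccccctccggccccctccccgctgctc
Each window held 2 matches, which overlap in VLDLR, and 42.6% of all 35116 RefSeq windows held at least 1. The DAB2 window held 18 CG dinucleotides, and 63.2% of windows had fewer. The VLDLR window held 41, and 98.3% of windows had fewer. MYO6, which did not pass 3-fold, also held 41. Neither window held TATAAA, which 10.7% of windows did, nor TGANTCA, the AP-1 letters, which 6.57% of windows did, each searched on both strands.

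The neighbours of each gene on its chromosome were read as a regional level. For DAB2, the 5 expressed protein-coding genes on the side of lower coordinates were WDR70 at 1.17-fold, EGFLAM at 3.72-fold, LIFR at 3.11-fold, OSMR at 2.67-fold and RICTOR at 1.54-fold higher in CARM1 KO cells. The 5 on the other side were TTC33 at 1.19-fold and CARD6 at 2.07-fold higher, and PRKAA1 at 1.30-fold, RPL37 at 1.22-fold and OXCT1 at 1.04-fold lower. LIFR and OSMR, next to each other here, encode receptors for leukemia inhibitory factor and oncostatin M, and EGFLAM and LIFR were called higher. In all, 0 of the 10 neighbours had a larger log2 fold change than DAB2. The median log2 fold change of the 10 neighbours was 0.44, against 2.01 for DAB2, and it was 0.05 with 10 neighbours on each side. For VLDLR the median was -0.26, against 2.28 for VLDLR, and 1 of 10 neighbours was higher still. That gene was SMARCA2, an ATPase of the SWI/SNF complex, with 343 reads in the parental library and 1823 in the knockout. For LRP8 the neighbours' median was 0.45, close to its own 0.57. For MYO6, LRP1 and NUMB the medians were 0.11, 0.41 and 0.31, beside their own 0.92, 0.91 and 0.14. With 10 neighbours on each side these medians were 0.42, 0.27 and -0.01, so the sign of the NUMB median turned. Copy number was not measured, so regional copy number and transcription cannot be told apart.

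**Figure D4:**
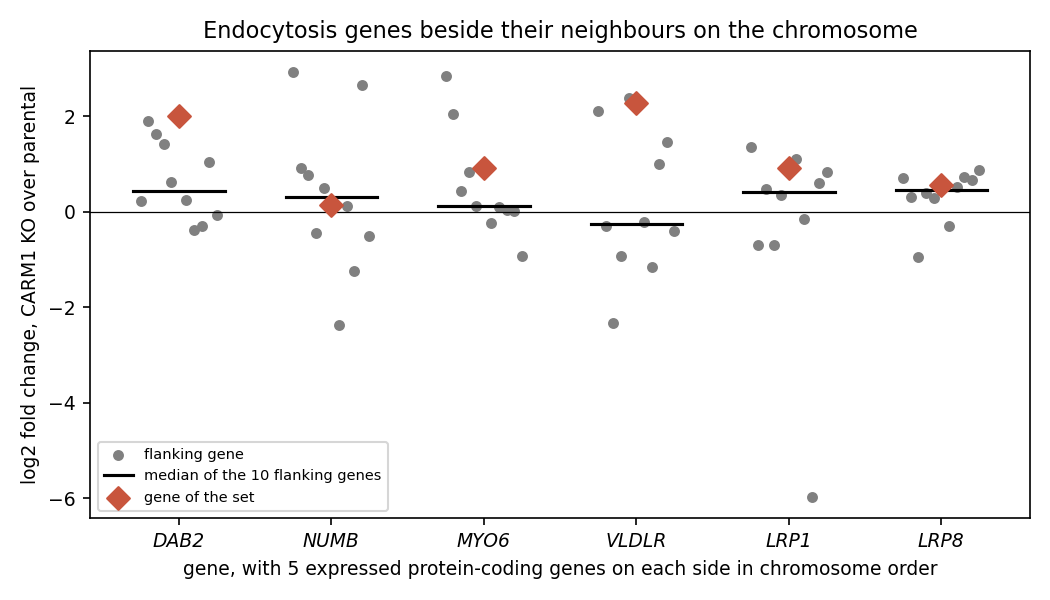
Log2 fold change of CARM1 KO over parental for 6 genes of the set (red diamonds) and for the 5 expressed protein-coding genes on each side in chromosome order (grey points), with the median of the 10 neighbours as a black line. DAB2 and VLDLR stand 2.01 and 2.28 above zero, where their neighbours' medians are 0.44 and -0.26, while LRP8 at 0.57 is near 0.45.

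The 5 protein-coding genes whose RPKM levels in the 2 libraries lay nearest to those of DAB2, by Euclidean distance on the log2 scale, were FRMD3, CD40, DENND3, RAB6B and CA13. The distances ran from 0.0387 for FRMD3 to 0.0927 for CA13. FRMD3 had 88 reads in the parental library and 377 in the knockout. CD40, a receptor of the TNF family, had 75 and 326 reads. RAB6B, a small GTPase of Golgi transport, had 83 and 328 reads. With 2 libraries this likeness says only that level and change were similar.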

How the data were processed

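RNA-Seq was available for 1 parental and 1 CARM1 KO library of A1847 cells (ScriptSeq Complete Gold, 75 bp paired-end reads). The authors aligned reads to hg19 with bowtie2, and RSEM gave the estimated counts per Ensembl gene that were deposited as whole numbers, without normalization. The processing notes name RSEM 1.2.3, and the paper's text names another version. The Ensembl release and strand setting are not given in the sources used here.

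GENCODE GRCh37 symbols matched 55501 of 57736 genes. Counts were scaled by TMM (edgeR 4.0.16, R 4.3.3) and compared as ratios with exact 95% binomial intervals (scipy 1.17.1). A gene with 0 reads was set to 3 reads and its fold written as a bound. The methods of the study used edgeR, but with 1 library per group no dispersion can be estimated, so no test was run. The fold and interval steps were tested on simulated Poisson counts, which hold counting error only and no spread between libraries. RPKM used the merged exon length.

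Named genes were the genes of the set, listed genes past 3-fold with at least 50 reads, the 2 most abundant of a list with fewer than 2 such genes, the neighbours of DAB2 and the 5 genes nearest to it. Others, including RELN, EPN3, GULP1, APOE, LRP5, LRP6, LRP12, TGFBR1, HSPA8, SMARCA2 and some markers, were named after their values were seen. Some listed genes enter the counts over lists, but their values are not reported here and they were left out of summed levels and figures. The members and lists were chosen with earlier results of these data known. Alternatives were scaling by upper quartile, by DESeq2 1.42.0 or by the library total alone, minimums of 1 and 50 reads, a fold of 2, the whole interval past 3-fold, a prior count of 2, the longest transcript as length and 10 neighbours on each side.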

Additional observations from a re-analysis of the deposited data

How the results depend on the processing

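DAB2 and VLDLR were past 3-fold, and no other gene of the set was, under each scaling, read minimum and fold rule tried. The DAB2 log2 fold change ranged from 1.98 with library size only to 2.05 with DESeq2 size factors, and was 1.99 with a prior count of 2. The order of RPKM levels was the same with the longest transcript as length, though NUMB and MYO6 then lay further apart in CARM1 KO cells. That order was not computed with the reads of the RNA overlapping LRP8 added. Counts over all genes moved more. A fold above 2 gave 3631 higher and 3537 lower genes, and 14 lower genes in the pathway lists, where the main count was 6. The whole interval past 3-fold gave 1292 higher and 1234 lower genes, and at least 50 reads gave 1219 lower genes. These follow from the looser or stricter rule. Of the 17 higher genes in the pathway lists, 12 had their whole interval past 3-fold and 13 had at least 50 reads, and library size only gave 7 lower genes, with APOE past the threshold. All 85 comparisons of 28 single genes stayed within their counting intervals, including LRP8 with the overlapping RNA added, which was chosen after seeing the data. Apart from that LRP8 case, they came from the alternative scalings. Each scaling shifts every gene by the same small amount, so these comparisons are not separate checks. No paired analysis was possible because each group holds 1 library, which also leaves none to omit. Depth limits DAB1 and LRP2, for which up to 3 reads per library cannot be told from 0.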
